A study of Homo sapiens with 6 samples.

Results

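The genes described here encode the proteins of the cytosolic ribosome. They were picked out by symbol, as RPL or RPS genes without pseudogenes and S6 kinases. Earlier results of these data were known when this set was chosen. Each gene was read from the brightest of its probe sets on average. The rule found 52 of the 14884 named genes in the deposited table, whereas 86 protein-coding genes of a RefSeq gene table carry such symbols; the others, among them the stalk genes RPLP0, RPLP1 and RPLP2, RPSA, RPL5 and RPS27A, are not analysed here. Of the 52 genes, 17 encode 40S proteins, 28 encode 60S proteins and 7 are paralogs with an L after the number of the symbol. Expression was measured on 1 array per sample in SKOV3 cells, an established human ovarian carcinoma line, after 11 days in McCoy's 5A medium with 15% serum. The 2D control cells (n = 3) grew on attachment plates with water in place of the additive. The 3D cells (n = 3) grew on low-attachment plates with 0.015% (w/v) FP001, an additive for which the labels give no more than this code. Plate and additive changed together and their effects cannot be told apart. The labels do not say that the samples of a group were separate cultures, so p-values describe the scatter among these arrays alone, and part of that scatter may be technical.

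A ribosome consists of a small (40S) subunit, which reads the mRNA, and a large (60S) subunit, which joins amino acids. Their proteins are made in near-equal numbers, assembled with ribosomal RNA in the nucleolus and matured in the cytoplasm. Ribosomal protein mRNAs are among the most abundant in growing cells. Most begin with a C followed by a run of pyrimidines, the 5′ terminal oligopyrimidine (TOP) tract, through which the kinase complex of mTOR and the RNA-binding protein LARP1 control their translation and stability.

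The tract can be read in the sequence around the annotated transcription starts. Each line below runs from 10 bases before the start to 20 bases from it on, 5′ to 3′ on the transcribed strand (RefSeq, GRCh38.p14). Capitals mark the unbroken run of C and T that begins with a C at the start itself. The genes were chosen because they fell in 3D culture (RPS19, RPS14, RPS23, RPL10, RPL12, RPL41), because they are the substrate of S6 kinase (RPS6), or because their starts lack the tract (RPL26L1, RPS27L, RPL10L). The start of RPS15A was not in the sequence table used here.
RPS19 (chr19:41860245-41860274, plus strand): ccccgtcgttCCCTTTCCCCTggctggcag
RPS14 (chr5:150449720-150449749, minus strand): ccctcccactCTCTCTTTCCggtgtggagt
RPS23 (chr5:82278335-82278364, minus strand): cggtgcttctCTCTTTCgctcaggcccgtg
RPL10 (chrX:154398367-154398396, plus strand): ggaggagcgcCTCTTTCCCTTCggtgtggt
RPL12 (chr9:127451387-127451416, minus strand): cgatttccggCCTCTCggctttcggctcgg
RPL41 (chr12:56116623-56116652, plus strand): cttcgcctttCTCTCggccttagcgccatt
RPS6 (chr9:19380217-19380246, minus strand): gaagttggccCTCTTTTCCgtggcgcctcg
RPL26 (chr17:8383174-8383203, minus strand): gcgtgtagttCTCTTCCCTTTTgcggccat
RPL26L1 (chr5:172958719-172958748, plus strand): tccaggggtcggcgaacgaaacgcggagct
RPS27L (chr15:63157458-63157487, minus strand): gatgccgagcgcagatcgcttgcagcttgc
RPL10L (chr14:46651762-46651791, minus strand): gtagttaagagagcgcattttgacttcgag
The runs were 11 bases in RPS19, 12 in RPL10 and RPL26, 10 in RPS14, and 5 to 9 in RPS23, RPL12, RPL41 and RPS6. RPL10 has 3 listed starts and RPS19 and RPL26L1 have 2 each; where any start carried the tract, that start is shown. The other member of the RPL26 pair, RPL26, stands beside RPL26L1 for comparison.

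The ribosomal protein genes were lower in 3D culture as a group, by a small amount. Of 52 genes 48 had a change (3D minus 2D, log2 scale) below 0, 92.3% against 51.3% of all genes. The median change was -0.22, or 1.17-fold lower, against -0.01 for all genes. Of the 52 genes, 7 fell, 0 rose and 45 did not pass (limma, Benjamini-Hochberg adjusted p under 0.05 over all genes); 13.5% of the members fell, where 4.77% of all genes fell and 5.23% rose. At an unadjusted p under 0.05, 23 members were lower (44.2%, against 11.9% of all genes) and 1 was higher, where 11.5% of all genes were. All 3D arrays lay below all 2D arrays for 26 members (50%, against 15.3% of all genes), and the reverse held for 1 member (13.8% of all genes). Values are relative to the rest of the transcripts on each array, since the arrays were normalised to a common distribution. In bulk RNA, fewer cells with a transcript and less of it per cell cannot be told apart.

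The shift was present on every array of each group. Relative to each gene's own mean, the 52 genes averaged 0.13, 0.12 and 0.07 on 2D replicates 1 to 3. On 3D replicates 1 to 3 they averaged -0.11, -0.10 and -0.12. Each 3D average was thus below each 2D average, and the 3D averages lay close together. Of the 52 members 43, 46 and 32 lay above their own mean on the 2D arrays, and 11, 12 and 10 did so on the 3D arrays. The lowest of a gene's 6 values was on 3D replicates 1, 2 and 3 for 17, 14 and 16 genes, and on a 2D array for the few others. The median stayed between -0.26 and -0.20 when single arrays were left out, was -0.24 after a repeated quantile normalization and -0.22 after centring each array on its median.

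**Figure D1:**
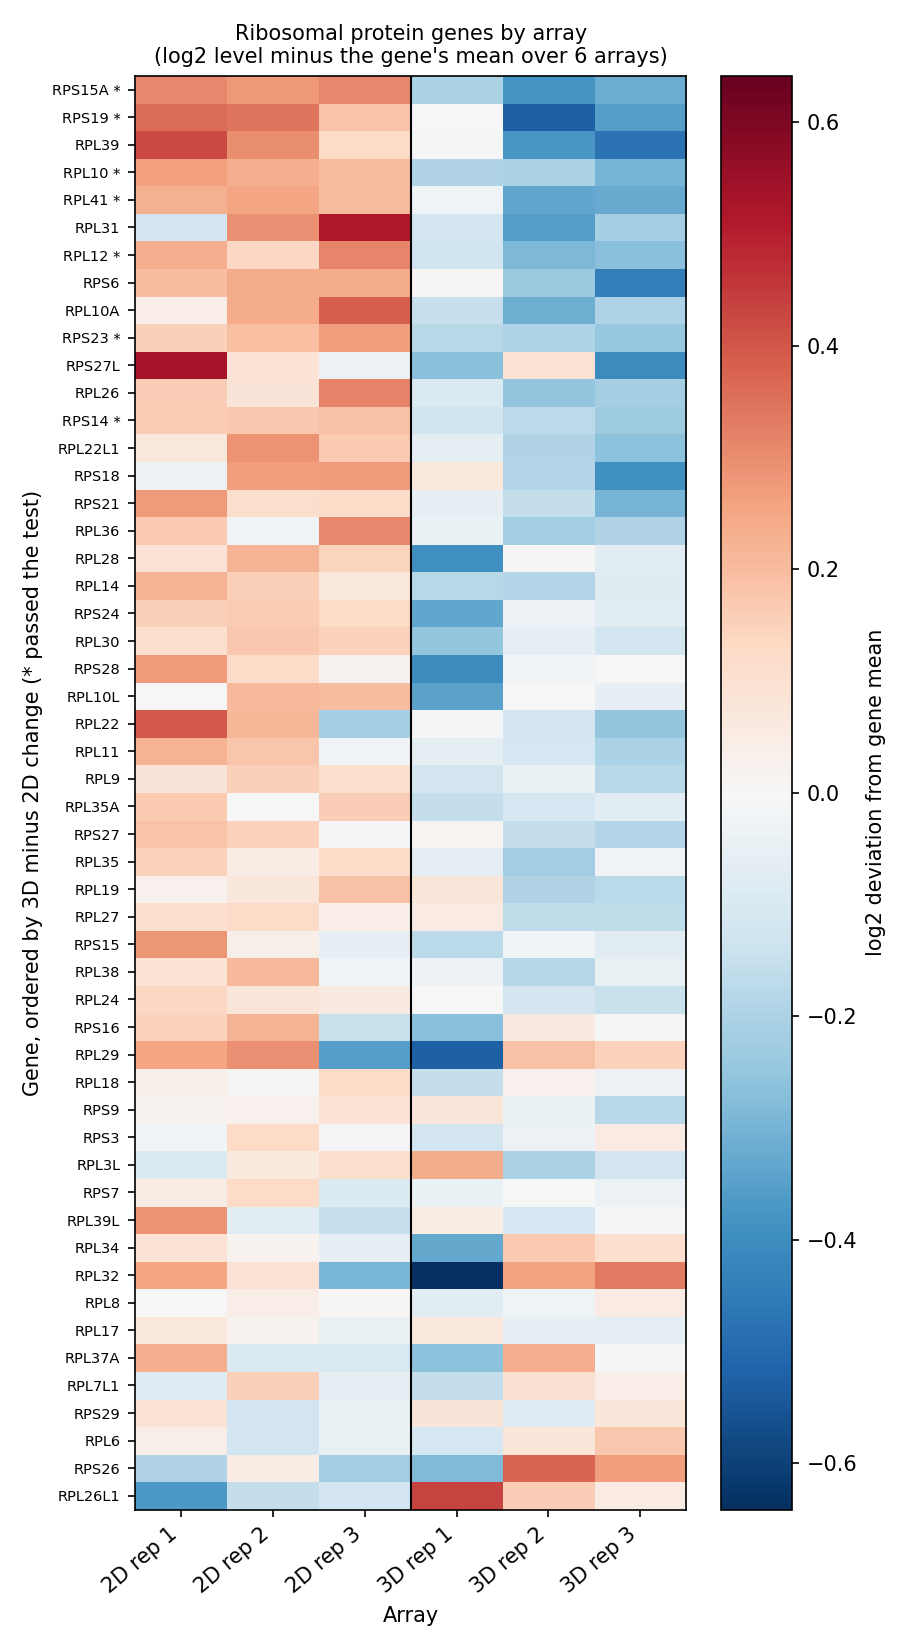
Log2 level of each of the 52 ribosomal protein genes (rows, ordered by change) on each of the 6 arrays (columns), shown as the deviation from the gene's own mean; red is higher and blue lower, and an asterisk marks the 7 genes that passed the test. Most of the upper rows are red on all 2D arrays and blue or pale on all 3D arrays, and RPL26L1 in the bottom row runs the other way.

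Among the 40S genes 4 of 17 fell (median change of the 17, -0.28). RPS15A, a 40S protein that contacts 18S ribosomal RNA, gave the largest fall of all members. It read 7.35, 7.32 and 7.35 on the 2D arrays and 6.83, 6.66 and 6.72 on the 3D arrays. The 2D values nearly coincided and the highest 3D value lay well under them. The change was -0.60 ± 0.09 (SE, n = 3 per group, limma adjusted p = 0.00632), or 1.51-fold lower.

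RPS19, the gene most often mutated in the inherited anaemia of Diamond and Blackfan, read 10.36, 10.35 and 10.19 in 2D and 10.004, 9.48 and 9.65 in 3D. The groups did not overlap, but 3D replicate 1 lay nearer to the 2D arrays than to the other 3D arrays. The change was -0.59 ± 0.14 (SE, limma adjusted p = 0.0427). RPS23, a protein of the decoding centre, read 8.89, 8.93 and 9.01 in 2D and 8.56, 8.54 and 8.50 in 3D, a change of -0.41 ± 0.09 (SE, limma adjusted p = 0.0257). RPS14, whose loss of a single copy underlies the anaemia of a myelodysplastic syndrome, read 6.21, 6.22 and 6.23 in 2D and 5.92, 5.88 and 5.82 in 3D. Its change was -0.35 ± 0.09 (SE, limma adjusted p = 0.0428), the smallest among the genes that fell, and its 2D spread was an SD of 0.01.

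Among the 60S genes 3 of 28 fell (median change of the 28, -0.22); the difference from the 40S genes was not tested. RPL10, a protein near the peptidyl transferase centre that joins the subunit late, in the cytoplasm, read 11.73, 11.69 and 11.66 in 2D and 11.27, 11.26 and 11.17 in 3D. The values lay close together within both groups, and the change was -0.46 ± 0.09 (SE, n = 3 per group, limma adjusted p = 0.0156). RPL12, which sits at the base of the stalk that recruits translation factors, read 11.83, 11.73 and 11.91 in 2D and 11.46, 11.31 and 11.33 in 3D. Every 3D array was thus below the lowest 2D array, with a change of -0.45 ± 0.10 (SE, limma adjusted p = 0.0266).

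RPL41, a very short basic protein, read 12.31, 12.33 and 12.28 in 2D and 12.05, 11.75 and 11.76 in 3D, a change of -0.46 ± 0.11 (SE, limma adjusted p = 0.0415). It had 5 named probe sets, all with changes below 0, from -0.46 for the brightest to -0.11 for the one with the smallest change. As the mean of these probe sets RPL41 did not pass (-0.27, limma adjusted p = 0.126). The other genes with more than 1 probe set were RPL39 (-0.57 and -0.47), RPS18 (-0.34 and -0.30) and RPL19 (-0.19 and -0.26), and the probe sets of each had the same direction.

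Of the 7 calls, 1 held whichever array was left out. RPS15A kept its call in all of these fits, with a highest adjusted p of 0.0362. RPS19, RPL12, RPL41, RPS23 and RPS14 lost theirs without any single array except 3D replicate 1. RPL10 lost its call without 2D replicate 1 or 2 or 3D replicate 2 or 3. The number of members that fell was 3, 1 and 2 without 2D replicates 1, 2 and 3, and 10, 1 and 1 without 3D replicates 1, 2 and 3, with 0 risen in each. Of all genes 2.96%, 2.73% and 2.69% fell without 2D replicates 1, 2 and 3, and 5.4%, 2.34% and 2.39% without 3D replicates 1, 2 and 3. In the fits where only 1 of the 52 members fell, the share of members was thus no larger than that of all genes. Tested among all 53617 probe sets, 1 member passed, RPS15A, and 1.85% of all genes fell.

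A further 7 genes were lower with an adjusted p between 0.05 and 0.1 (limma). The share of all genes in that band was not counted. In each of the 7 the groups did not overlap, as held in this direction for 15.3% of all genes. This adds little to the p-values, which rest on the same arrays. RPS6, the substrate of S6 kinase, read 6.98, 7.02 and 7.01 in 2D and 6.79, 6.54 and 6.33 in 3D, a change of -0.45 ± 0.13 (SE, limma adjusted p = 0.0678). Its 2D values lay close together and its 3D values were spread. RPL26, which lies beside the exit tunnel, read 8.84, 8.77 and 9.001 in 2D and 8.59, 8.43 and 8.47 in 3D (-0.37 ± 0.10, adjusted p = 0.0631). Both genes passed without 3D replicate 1 (adjusted p = 0.0171 and 0.0486).
RPL39, a protein that lines the exit tunnel, and RPL10A, of the stalk on the tRNA exit side, were named after their values were seen, with changes of -0.57 (adjusted p = 0.0509) and -0.44 (adjusted p = 0.0544). The others of the 7 were the paralog RPL22L1 and, also named after their values were seen, RPS21 (-0.34) and RPL14 (-0.30).

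RPL11, which with RPL5 and 5S ribosomal RNA forms the particle that can bind MDM2, read 10.88, 10.83 and 10.63 in 2D and 10.59, 10.54 and 10.45 in 3D. The groups did not overlap, yet the change did not pass (-0.25 ± 0.10 SE, n = 3, limma adjusted p = 0.194). RPS27, a zinc-binding 40S protein, gave -0.22 ± 0.10 (adjusted p = 0.269), and 3D replicate 1 (11.75) lay above 2D replicate 3 (11.73). RPS3, at the mRNA entry site, gave -0.07 ± 0.10 (95% interval -0.29 to 0.16, adjusted p = 0.759). RPL22 gave -0.26 ± 0.16 (adjusted p = 0.403), with 2D values from 4.49 to 5.09 that spanned 2 of the 3 3D values.

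Not every member was lower. In 13 of 52 genes the change lay within 0.1 of 0, among them RPL8 (-0.03, 95% interval -0.23 to 0.17) and RPL17 (-0.03, -0.24 to 0.19), named after their values were seen. The intervals of RPL8 and RPL17 exclude a fall as large as that of RPL10 or RPS15A. That of RPL32, which also changed by only -0.03, ran from -0.66 to 0.59 and does not. The 4 genes above 0, of which the first 3 were likewise named after their values were seen, were RPS29 (0.05), RPL6 (0.09), RPS26 (0.24) and the paralog RPL26L1. RPS26, which touches the mRNA at its exit, read 6.10, 6.35 and 6.08 in 2D against 6.02, 6.67 and 6.57 in 3D, so that its 3D arrays lay on both sides of the 2D arrays.
RPL32 and RPL29, both named after their values were seen, had the widest spread within the 3D group. RPL32 read 5.60, 5.44 and 5.05 in 2D and 4.70, 5.60 and 5.68 in 3D, and RPL29 read 6.54, 6.58 and 5.93 in 2D and 5.76, 6.47 and 6.43 in 3D. In both genes 2D replicate 3 and 3D replicate 1 were the low arrays, and the groups overlapped. For a typical member the 95% interval reached 0.25 to either side of its change.

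**Figure D2:**
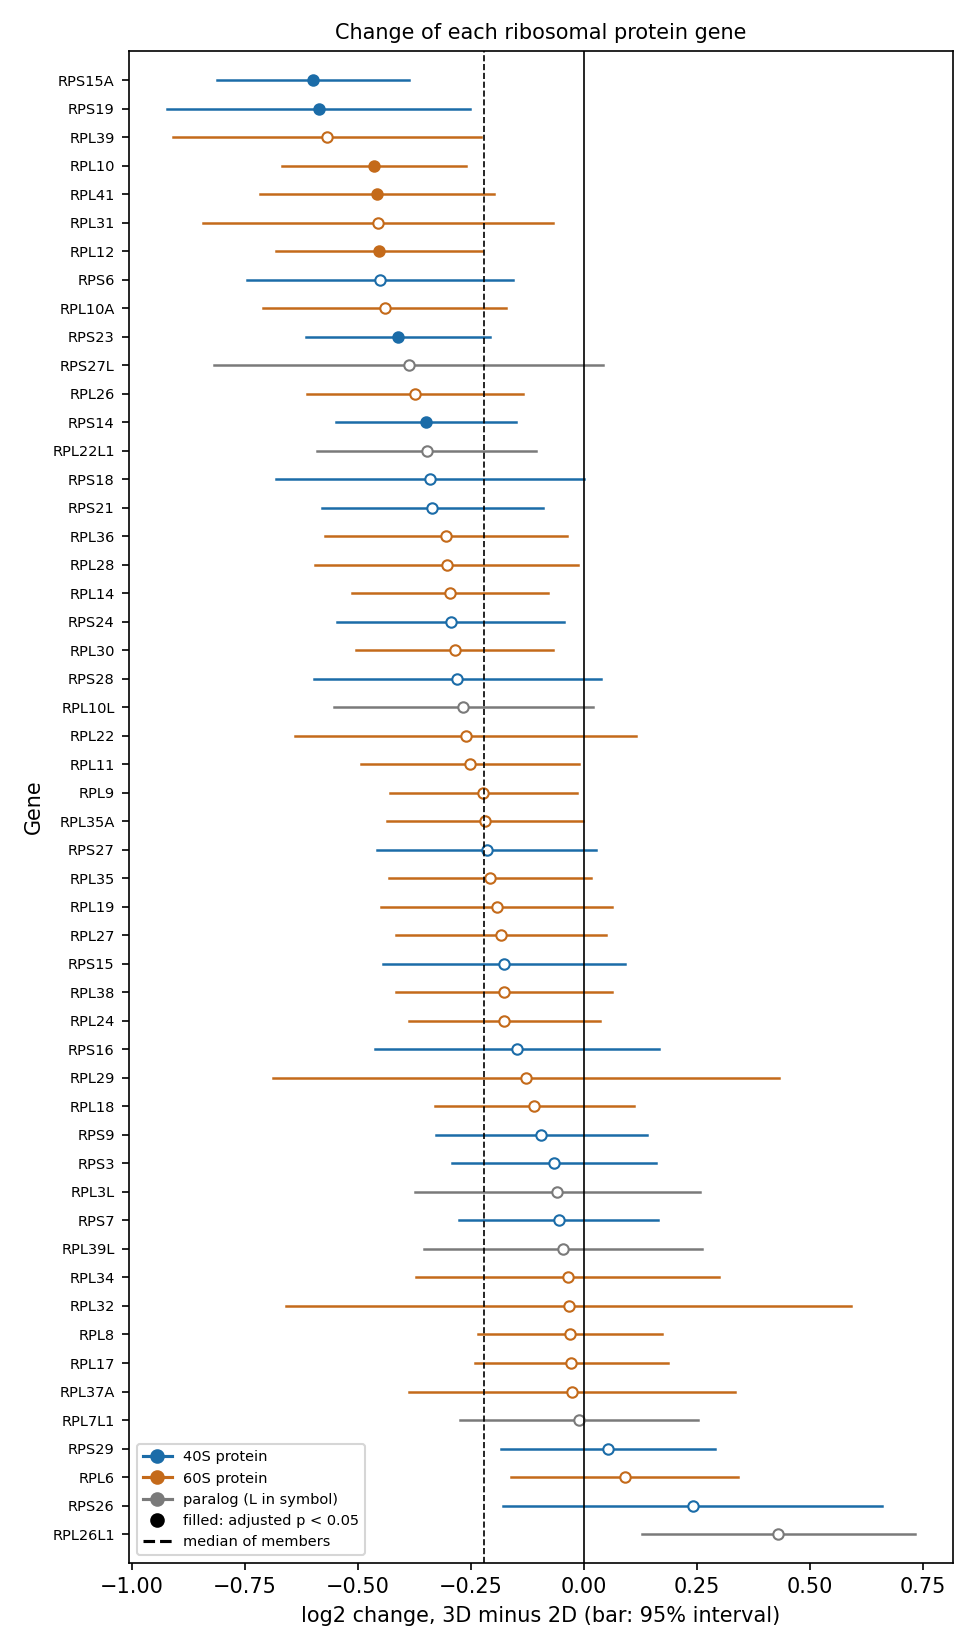
Change of each ribosomal protein gene, 3D minus 2D on the log2 scale (points), with its 95% interval (bars); blue is 40S, orange 60S, grey a paralog, and filled points passed the test. The points run from -0.60 (RPS15A) to 0.43 (RPL26L1), 48 of 52 lie left of 0, and the dashed line marks the median of -0.22.

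The 7 paralogs, copies of ribosomal protein genes that in several cases are used in particular tissues, did not pass singly. Their median change was -0.06. RPL26L1, a close copy of RPL26, was the only member with all 3D arrays above all 2D arrays. It read 6.33, 6.54 and 6.57 in 2D and 7.13, 6.85 and 6.75 in 3D, a change of 0.43 ± 0.13 (SE, n = 3, limma adjusted p = 0.0859). RPL22L1, the paralog of RPL22, read 5.93, 6.16 and 6.04 in 2D and 5.81, 5.68 and 5.60 in 3D (-0.35 ± 0.10, adjusted p = 0.0839).
RPS27L, a p53 target, gave -0.39 ± 0.18 (adjusted p = 0.263) with overlapping groups. Its values of 2.82 to 3.76 reached from just under the lower quartile of the arrays (2.92 to 2.97) to above it, and those of the testis-expressed RPL10L (2.24 to 2.79, change -0.27) lay under it. RPL39L (-0.05), also known from testis, RPL3L (-0.06), the striated muscle copy of RPL3, and RPL7L1 (-0.01) had a direction that depended on single arrays.

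Both genes were measured in 5 pairs of paralog and parent, and the difference within each array was compared between the groups. RPL26L1 minus RPL26 was -2.52, -2.23 and -2.43 on the 2D arrays and -1.46, -1.58 and -1.72 on the 3D arrays. The groups did not overlap, and the difference shifted by 0.80 towards the paralog (exact permutation test, two-sided, p = 0.1, adjusted over the 5 pairs 0.25). RPL39L minus RPL39 shifted by 0.52, from -1.16, -1.40 and -1.30 to -0.98, -0.76 and -0.56 (exact p = 0.1, adjusted 0.25). Here the paralog itself changed little (-0.05) and RPL39 was lower (-0.57), whereas RPL26L1 was higher (0.43) and RPL26 lower (-0.37). With 3 arrays against 3 a p of 0.1 is the smallest this test can give. The shifts of RPL10L minus RPL10 (0.20), RPL22L1 minus RPL22 (-0.09) and RPS27L minus RPS27 (-0.17) came with overlapping groups (exact p = 0.3, 0.7 and 0.5). The levels of different probe sets cannot be compared, so only these shifts are read.

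A start with the tract, defined as a C at the annotated start and at least 5 pyrimidines from there on, was found in 31 of the 47 members with an entry in the sequence table (66%), against 5.14% of all 27305 genes in it. All 31 had a change below 0, from -0.59 to -0.03 (median -0.30), and they included 6 of the 7 genes that fell. Of the 16 members without such a start 12 were below 0 (median -0.12), and the 4 genes above 0 were all among them. The groups also differed in make-up, since such a start was found in 1 of 5 paralogs with an entry and in 30 of 42 other members. Outside the ribosomal protein genes, 630 tested genes had such a start; their median change was -0.03, and 5.56% fell against 5.02% of the 10072 genes without one. This split was made after the changes were known and is a description without a test. Annotated starts can lie some bases away from the start a cell uses.

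**Figure D3:**
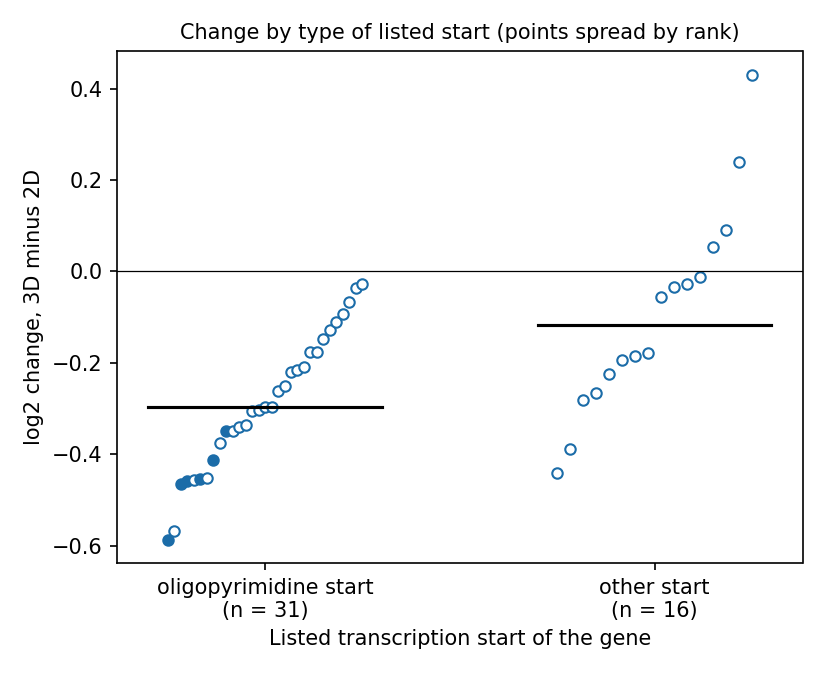
Change (3D minus 2D, log2) of the 47 ribosomal protein genes with a listed start, split by whether a start carries the oligopyrimidine tract; each point is a gene, filled where it passed, and the horizontal line is the median. All 31 points on the left lie below 0, and the 16 on the right run from -0.44 to 0.43.

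Other short motifs were counted in the 300 bases from 250 before to 50 after each start, on both strands. CGGAAG, the core of ETS family sites, was present in 63.8% of the 47 members and in 22.6% of all genes in the table. CTCGCGAG, a palindrome found in housekeeping promoters, was in 8.51% (4 genes) against 1.23%, and AAGATGGC, the core of YY1 sites, in 10.6% (5 genes) against 3.52%. TATAAA was in 8.51% against 14%, and GGGCGG, the GC box, in 53.2% against 48.3%. Of the 65 mitochondrial ribosomal protein genes with an entry, 56.9% held CGGAAG, 3.08% CTCGCGAG, 30.8% AAGATGGC, 4.62% TATAAA and 61.5% GGGCGG. A high share of CGGAAG or AAGATGGC was thus not particular to the members. Among the 118 matches in the members, 4 pairs of different motifs overlapped. Matches of letters are not evidence of binding. The 100 bases before the RPS14 start hold 3 copies of CGGAAG in either orientation (capitals), and the RPS19 stretch, from 70 to 11 bases before the start shown above, holds 2 copies of the palindrome.
RPS14 (chr5:150449740-150449839, minus strand): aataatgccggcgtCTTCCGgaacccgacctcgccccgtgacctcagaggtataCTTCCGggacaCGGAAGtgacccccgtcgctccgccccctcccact
RPS19 (chr19:41860185-41860244, plus strand): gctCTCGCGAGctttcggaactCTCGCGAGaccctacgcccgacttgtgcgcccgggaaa

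The members covered nearly the whole range of the array, with mean levels from 2.59 (RPL10L) to 12.08 (RPL41). The 11 members at a level of 10 or more were all below 0 (median -0.28), whereas the 378 genes of that brightness had a median change of 0.03 and 7.14% of them fell. The 8 members between 8 and 10 were also all below 0 (median -0.34; all 2104 genes there, 0.00). Of the 18 members between 6 and 8, 15 were below 0 (median -0.16), and of the 15 under 6, 14 were (median -0.26). Level and change correlated weakly across the 52 members (r = -0.27, rho = -0.28), which share their arrays.
Ribosomal protein genes have many near-identical processed pseudogenes, and how far a probe set reads them cannot be told from the table, so every member's value is uncertain to that extent. Of 25 named ribosomal protein pseudogenes, listed after the data had been seen, 0 passed (limma; 1 lower and 2 higher at an unadjusted p under 0.05), 14 were below 0, and the median change was -0.02.

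The proteins of the mitochondrial ribosome, which makes the few proteins encoded by mitochondrial DNA, did not share the shift. Of 73 measured genes 0 passed (limma; 2 lower and 2 higher at an unadjusted p under 0.05). There were 37 below 0 and 36 above, and the median change was -0.01. Their array averages were 0.02, 0.00 and -0.01 in 2D and -0.04, 0.03 and 0.01 in 3D, so that the groups overlapped. The difference between both ribosomes is given by these counts and medians and was not tested.

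Genes that carry small nucleolar RNAs in their introns, which guide the modification of ribosomal RNA and often have a tract at their starts, had a median change of -0.33. Of 12 measured host genes 3 fell (25%, against 4.77% of all genes), 0 rose and 9 did not pass. There were 9 below 0 and 3 above (SNHG16, TMEM107 and DANCR, up to 0.09, named after their values were seen). The number that passed was 1 without 2D replicate 1 and 1 when all probe sets were tested. ZFAS1 read 8.53, 8.52 and 9.02 in 2D and 7.33, 7.48 and 7.48 in 3D, a change of -1.26 ± 0.15 (SE, n = 3, limma adjusted p = 0.00204). Its 3D arrays all lay more than 1 unit under the lowest 2D array. SNHG17 (-0.77 ± 0.15, adjusted p = 0.0173) and SNHG5 (-0.75 ± 0.16, adjusted p = 0.0265) also fell. SNHG5 passed only where 3D replicate 1 or 3 was left out (highest adjusted p 0.0982). SNHG17 did not pass without 2D replicate 1 or 3D replicate 2 or 3 (highest adjusted p 0.0721). GAS5, named after its value was seen, was lower on all 3D arrays without passing (-0.70 ± 0.20, adjusted p = 0.0702).
ZFAS1 (chr20:49278632-49278661, plus strand): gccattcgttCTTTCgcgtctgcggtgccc
SNHG5 (chr6:85678714-85678743, minus strand): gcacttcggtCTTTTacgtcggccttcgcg
Both starts are shown as for the ribosomal protein genes and carry a run of 5 pyrimidines.

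**Figure D4:**
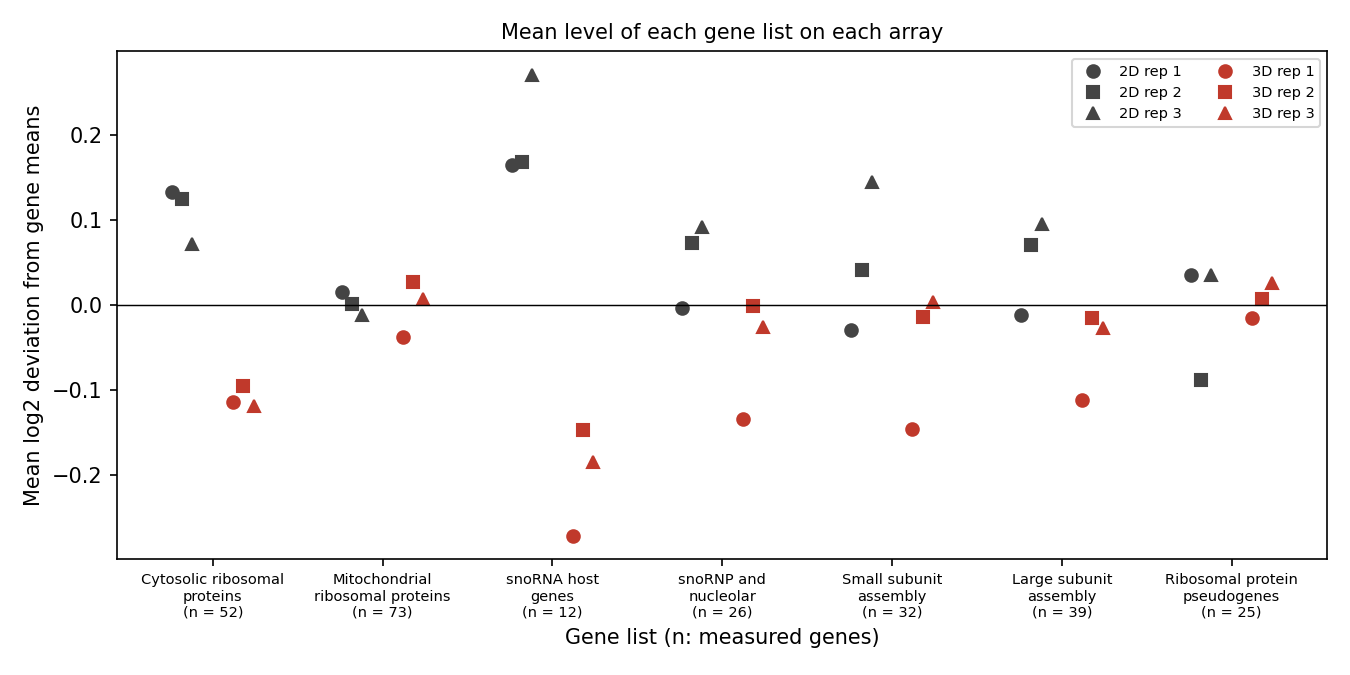
Mean log2 deviation from the gene means on each array for 7 gene lists; grey symbols are 2D arrays, red symbols 3D arrays, and the shape gives the replicate. The cytosolic ribosomal proteins and the small nucleolar RNA host genes have all 2D arrays above all 3D arrays, the large subunit assembly factors do so narrowly, whereas the mitochondrial ribosomal proteins and the pseudogenes overlap.

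Among the factors that build the ribosome, the number that passed depended on single arrays. Of 26 proteins of small nucleolar particles and the nucleolus 4 fell (15.4%, against 4.77% of all genes) and 0 rose (median -0.07). Leaving out single arrays gave 0 to 5 that passed. The 4 that fell were NIFK (-0.65 ± 0.11 SE, n = 3), which binds the proliferation antigen Ki-67, NOP16 (-0.53), the RNA helicase DDX21 (-0.50) and NUFIP1 (-0.48), which assembles the particles. With 3D replicate 2 or 3 left out none of the 4 passed, and NOP16 and DDX21 also failed without 2D replicate 2 or 3 (highest adjusted p 0.116). Of 32 small subunit assembly factors 1 rose (3.12%, against 5.23% of all genes) and 0 fell (median -0.12). It was RIOK1, an atypical kinase of late 40S maturation (0.59 ± 0.14, limma adjusted p = 0.0335).
Of 39 large subunit assembly factors 2 fell (5.13%, near the 4.77% of all genes) and 0 rose (median -0.07). The number that passed was 7 without 3D replicate 1, 0 without 2D replicate 2 or 3 or 3D replicate 2, and 1 without either of the remaining arrays. They were NOC3L (-0.62 ± 0.15) and SBDS (-0.48 ± 0.10), which helps to release EIF6 from new 60S subunits. SBDS and RIOK1 passed only where 3D replicate 1 was the array left out, and NOC3L only where it was 3D replicate 1 or 3 (highest adjusted p 0.126). Of 8 genes of RNA polymerase I and of 5S transcription 1 fell (12.5%, against 4.77% of all genes) and 0 rose (median -0.05). It was GTF3A, the 5S gene factor (-0.50 ± 0.10, limma adjusted p = 0.0241). GTF3A passed only where the array left out was 2D replicate 2 or 3D replicate 1 (highest adjusted p 0.101). On each of the nucleolar and assembly lists 3D replicate 1 had the lowest array average.

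Translation factors had medians nearer to 0 than the ribosomal proteins. Of 8 elongation factors 1 fell (12.5%, against 4.77% of all genes) and 0 rose (median -0.11). It was the EIF5A paralog EIF5A2 (-0.82 ± 0.09 SE, n = 3, limma adjusted p = 0.00146). Of 11 initiation factors 0 passed (limma; 1 lower and 1 higher at an unadjusted p under 0.05, median -0.09). Of 16 other genes known for TOP mRNAs 0 passed (3 lower and 0 higher at an unadjusted p under 0.05, median -0.10). The abundant elongation factors EEF1G (-0.25), EEF2 (-0.16) and EEF1A1 (0.00), named after their values were seen, did not pass. FAU, which encodes a 40S protein fused to a ubiquitin-like one and lies outside the symbol rule, gave -0.17 (adjusted p = 0.335), and LARP1 is not analysed here. RPL36AL, a ribosomal protein gene that the symbol rule also misses and that was named after its value was seen, gave 0.20 (adjusted p = 0.356) with overlapping groups. Of 24 genes of ribosome quality control and recycling 1 fell (4.17%, near the 4.77% of all genes) and 0 rose (median 0.03). It was the ribosome-binding HABP4 (-0.72 ± 0.13), which missed the threshold without 2D replicate 2 or 3D replicate 3 (highest adjusted p 0.0502).

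**Figure D5:**
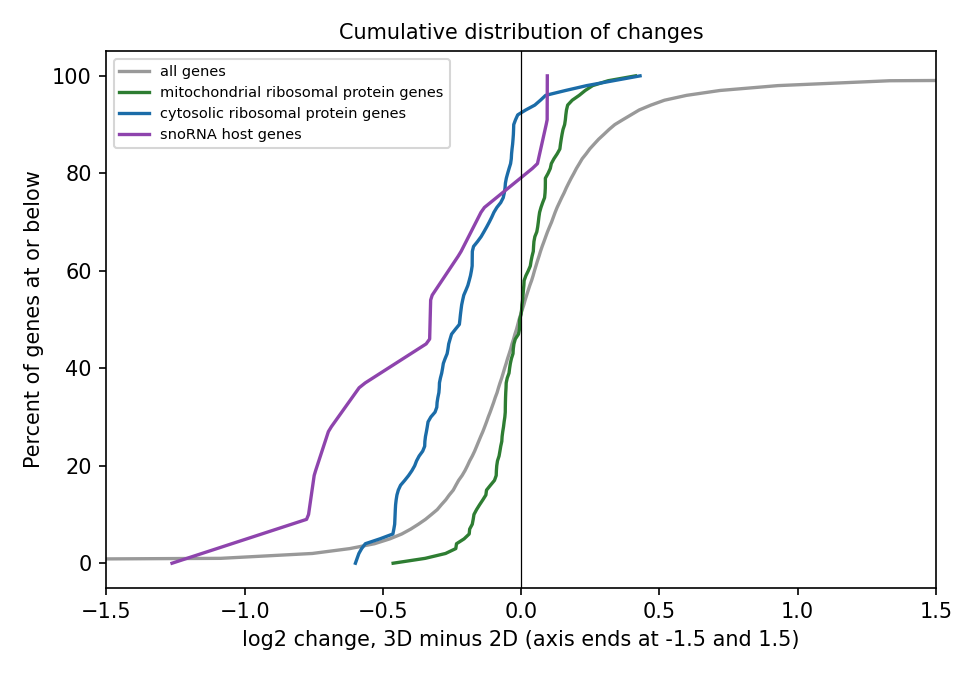
Cumulative distribution of the change (3D minus 2D, log2; axis from -1.5 to 1.5) for all 14884 genes, the 52 cytosolic and 73 mitochondrial ribosomal protein genes and the 12 small nucleolar RNA host genes. The cytosolic curve lies left of that of all genes over most of its course and crosses 0 near 92.3%, and the mitochondrial curve crosses it near the middle.

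Among the upstream regulators, MYC, which activates ribosome synthesis genes, read 8.32, 8.66 and 8.70 in 2D and 7.70, 7.52 and 7.56 in 3D (-0.97 ± 0.13 SE, n = 3, limma adjusted p = 0.00332). On the MYC network list 2 of 11 genes fell (18.2%), MYC and MLXIP (-0.60), and 1 rose (9.09%), MLX (0.42), with a median of -0.05. Of all genes 4.77% fell and 5.23% rose. MLX passed only where 3D replicate 1 was the array left out (highest adjusted p 0.113), and MLXIP did not pass without 2D replicate 1 or 3D replicate 3 (highest adjusted p 0.0575). Of 25 genes of the mTOR and S6 kinase pathway 1 rose and 1 fell (4% each, median 0.03), and both are known as inhibitors of mTOR. DEPTOR read 7.38, 7.81 and 7.76 in 2D and 9.60, 9.49 and 9.64 in 3D, a change of 1.92 ± 0.13 (SE, limma adjusted p = 0.000221). DDIT4 gave -2.07 ± 0.37, with 3D replicate 1 (9.20) nearer to the 2D arrays than the other 3D arrays (7.63 and 7.96), and did not pass without replicate 3 of either group (highest adjusted p 0.0526). EIF4EBP1, the translation repressor that mTOR phosphorylates, gave -0.77 ± 0.22 without passing (adjusted p = 0.0765). Of 11 genes of the p53 arm of ribosomal stress 1 fell (9.09%), the kinase gene PLK2 (-2.58), and 0 rose (median -0.03).

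The cells carried markers of ovarian carcinoma epithelium. PAX8 lay between 10.13 and 10.44 and KRT18 between 9.50 and 10.22 on all arrays, above the upper quartiles of 6.04 to 6.15. Mean levels on the list of these markers ran from 4.74 to 10.26 with a median of 8.61, so not every marker lay above those quartiles. Of 11 measured genes of that list 4 rose (36.4%), namely KRT19, EPCAM, CLDN3 and CLDN4. On the same list 2 fell (18.2%), KRT7 and FOLR1, and the median was 0.40. Of all genes 5.23% rose and 4.77% fell. Of 5 leukocyte markers 2 rose (40%), LYZ (1.83) and CD68 (0.68), and 0 fell. The other 3 were below 0, with CD14 at -0.41 (limma adjusted p = 0.168), CSF1R at -0.38 (adjusted p = 0.167) and TYROBP at -0.07, and the median of the list was -0.07. Of 4 fibroblast and endothelium markers 1 rose (25%), PECAM1 (1.27), and 0 fell. KDR and VWF were below 0 and the median was 0.04. As averages over so few genes, which LYZ, CD68 and PECAM1 dominate, the array values of the leukocyte list were -0.19 to -0.14 in 2D and 0.11 to 0.26 in 3D, and those of the fibroblast and endothelium list -0.19 to -0.13 in 2D and 0.06 to 0.29 in 3D. DCN, a defining fibroblast gene, lay under the lower quartile on all arrays (2.42 to 2.65). It was the dimmest of the fibroblast and endothelium list, whose mean levels reached 4.48 with a median of 4.36. The other genes of that list thus lay above the lower quartile on average. PTPRC, the pan-leukocyte gene, is not analysed here. The part of these markers in the lower ribosomal protein values was not tested.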

How the data were processed

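The authors' deposited series table holds log2 values made with RMA, per the submitters' processing notes, for 53617 probe sets on 6 arrays; of these steps, the version, probe grouping and any filter were not given in the sources used here. That values are log2 was read from their range. The labels name a 3′ labelling kit while the probe annotation is of a whole-transcript array; this was not resolved. Platform annotation named 16098 probe sets with 1 symbol, 0 with several and left 37519 unnamed; all 16098 gene identifiers matched a RefSeq table (GRCh38.p14), used for current symbols. Arrays give no depth, and their number limits the precision.

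Groups were compared with limma 3.58.1 in R 4.3.3 (lmFit, eBayes, group alone, two-sided), one probe set per gene, Benjamini-Hochberg over 14884 genes, threshold 0.05. The fit was tested on simulated data. Paralog pairs used an exact permutation test over arrays. Named were all members that passed, a fixed set of further members and every paralog, up to 4 called genes of each related list, MYC, FAU and EIF4EBP1, the cell type markers, and genes that the text says were named after their values were seen. Members and lists were chosen with earlier results of these data known. Alternatives were other normalizations, filters, probe set choices and variance models, the replicate number as a block, and leaving out each array. Sequences come from RefSeq tables; 47 of 52 members matched.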

Additional observations from a re-analysis of the deposited data

How the results depend on the processing

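All 20 members compared kept their direction and their side of the threshold after a repeated quantile normalization and with the most variable probe set. With arrays centred on their medians RPS14 lost its call (limma adjusted p = 0.0511) and with the mean of probe sets RPL41 did, while RPL39 passed in both. The 7 calls among ribosomal protein genes became 12 without dim genes, 12 with a trended robust variance and 1 when all probe sets were tested (1284 probe sets called). Of all genes tested, 8.14%, 6.41% and 1.85% fell in these settings, in place of 4.77%. Large subunit assembly factors gave 5, 7 and 0 calls in these settings in place of 2. Leaving out single arrays gave 1 to 10 calls, and over all genes 775 to 1899 in place of 1488. The median member change ranged from -0.26 to -0.20 there. Over these fits the change of RPL39L ranged from -0.132 to 0.0864, that of RPL7L1 from -0.0618 to 0.0635 and that of RPL3L from -0.193 to 0.027. The replicate number as a block left 1 call among the members, RPS15A, and 760 over all genes, of which 2.2% fell. Same-numbered arrays deviated from their group means with correlations of -0.28 to -0.06, and 0 of 6 arrays correlated best with their own number. With so few arrays this cannot show whether same-numbered samples shared a culture or day, and the labels do not say. With 3 arrays per group, the 95% intervals of 23 members lay wholly below 0 and that of 1 member wholly above it.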
